A study of Caenorhabditis elegans with 2 samples.

Results

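The spliceosomal snRNA genes of Caenorhabditis elegans were examined for nearby ChIP-seq peaks of LIN-32, using all 129 nuclear genes that Ensembl release 115 gives the biotype snRNA, of 46890 nuclear genes. Spliceosomal snRNAs are short nuclear RNAs that, bound to proteins, recognise splice sites and catalyse the removal of introns. Nematodes also make spliced leader RNAs (the SL1 RNAs of the sls-1 genes and the SL2 RNAs of the sls-2 genes), which donate their 5′ ends to other transcripts by trans-splicing, and SmY RNAs (the smy genes), which bind Sm proteins and are linked to trans-splicing. LIN-32 is a proneural transcription factor of the Atonal family, with a basic helix-loop-helix domain that binds E-boxes, and it is known for its part in making sensory neurons. Small non-coding genes are compact and carry their promoter elements close to or, in tRNA genes, within the transcribed sequence.

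The biotype was wider than its name. Of the 129 genes, 18 were sls-2 genes, 12 belonged to the sls-1 group, 10 were smy genes and 1 was mir-1831, a 22 nt entry annotated inside the snRNA gene sup-39. The other 88 genes were sorted by sequence, with genes of at least 80% identity joined into a group, since the files give most of them only a clone name. The R07E5.16 group held 23 genes of 93 to 108 nt, the C47F8.9 group 19 genes of 185 to 187 nt, the sup-39 group 13 genes of 156 to 170 nt, the F38E11.11 group 12 genes of 117 to 126 nt and the T11F9.15 group 5 genes of 142 to 144 nt. The remaining 16 genes joined no group of 5 or more. The sup-39 group includes sup-39 and sup-6, known from genetics as U1 snRNA genes whose mutant forms suppress splice site defects. Many copies were exact: 44 of the 129 genes shared their sequence with another of them, which left 94 distinct sequences.

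The chromatin came from mixed-stage embryos of strain OP740, isolated by bleaching and labelled 3 h old, of both sexes pooled. The strain carries the insertion wgIs740, in which lin-32 is fused to the tags TY1, EGFP and 3xFLAG beside a wild-type copy of unc-119, in animals with the unc-119 allele tm4063, and whole embryos were used, so the cells that carried the tagged protein were not separated. There were 2 biological replicates of 1 group, recovered with an antibody to GFP, and 1 control alignment served both, so no comparison between conditions was possible. The replicate lists held 30000 and 22618 peaks, the pooled list 26004 and the IDR list 1042, where IDR (irreproducible discovery rate) keeps peaks that rank alike in both replicates. Read depth is unknown from these lists, and the signal of a peak is the authors' value, used here for ranks within a list, where 1 is the strongest.

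Peaks lay beside a minority of snRNA genes. An IDR summit within 500 bp was found for 11 of the 129 genes (8.53%, exact 95% interval 4.33 to 14.7%), against 3.47% of all nuclear genes. Intervals of the same lengths laid at every possible position of the same chromosomes gave 0.973%, so the snRNA share was 8.76 times the placement share. The same count gave 201 of 612 tRNA genes (32.8%, 29.1 to 36.7%, 26.2 times their placement share), 70 of 346 snoRNA genes (20.2%, 16.1 to 24.9%, 17.2 times) and 16 of 261 miRNA genes (6.13%, 3.54 to 9.76%, 5.07 times). The snRNA interval thus lay below those of tRNA and snoRNA genes and overlapped that of miRNA genes. These intervals cover counting error over genes only, and neighbouring or identical genes are not independent.

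**Figure D1:**
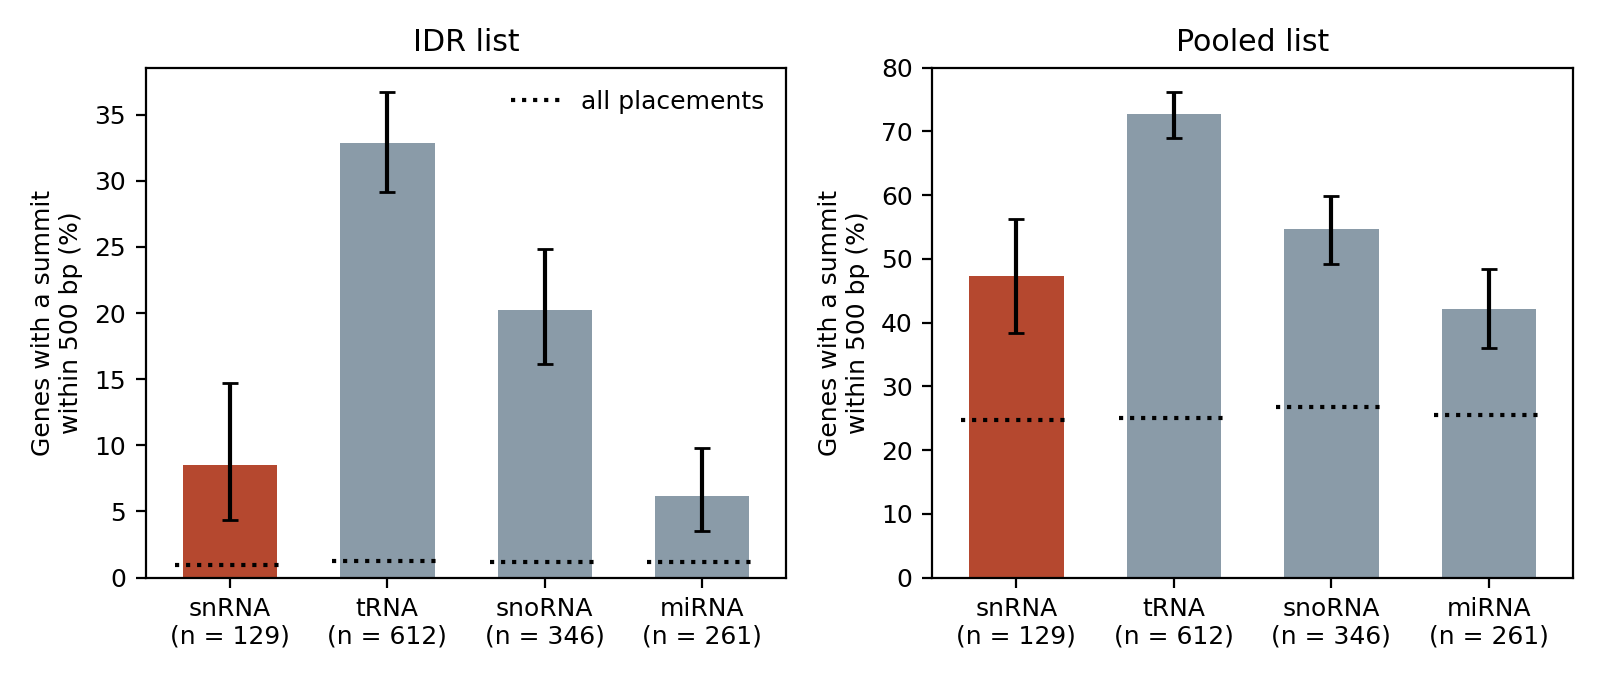
Share of genes with a summit within 500 bp (%), for 4 classes of small RNA gene in the IDR list (left) and the pooled list (right); bars give the share, whiskers the exact 95% interval and dotted lines the share over all placements. The snRNA bar stands at 8.53% in the IDR list, below tRNA genes at 32.8%, and at 47.3% in the pooled list.

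In the pooled list, which holds background entries as well as peaks, 61 snRNA genes had a summit within 500 bp (47.3%, 38.4 to 56.3%), against 38.2% of all nuclear genes and a placement share of 24.7%. The share of all nuclear genes is lowered by the 15363 piRNA genes, at 8.13%. Protein-coding genes, which are longer (median 2027 bp), stood at 57.5% and ncRNA genes at 45.4%. The snRNA ratio to placement was 1.91, beside 2.90 for tRNA genes, 2.04 for snoRNA genes and 1.65 for miRNA genes. Of the 61 genes, 20 had a summit among the 5000 strongest pooled peaks (32.8%) and 14 among the 2000 strongest (23.0%). Over all 17895 nuclear genes with a pooled summit, these shares were 31.1% and 15.3%, and over the 445 such tRNA genes they were 64.7% and 56.2%. In all, 73 pooled peaks made 80 pairs of gene and peak.

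Replicate support was partial. A summit within 500 bp was listed in both replicates for 38 snRNA genes (29.5%, 21.8 to 38.1%), in a single replicate for 34 and in neither for 57. The summits of the 2 replicates need not lie together. At F08G2.9 they lay 75 bp upstream of the 5′ end in replicate 1 and 614 bp downstream of it in replicate 2. The share of all nuclear genes with a summit in both was 26.6%, near the snRNA share. That figure includes the piRNA genes, at 3.78%. Protein-coding genes, which are longer and so more often near a summit, stood at 43.1% and ncRNA genes at 28.1%. The snRNA share lay below the former and near the latter, and no placement share was computed for this count. Replicate 1 had a summit beside 57 genes and replicate 2 beside 53. Among the 5000 strongest peaks of each replicate, 15 snRNA genes had a summit in both. The share of all nuclear genes at that cut was not computed, so this count has no background beside it. Of the 61 genes with a pooled summit, 37 had one in both replicates, 19 in a single replicate and 5 in neither. The same split was not computed over all nuclear genes with a pooled summit.

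The 11 genes with an IDR summit fell in 3 sequence groups, apart from mir-1831. They were 5 of the 18 sls-2 genes (27.8%, 9.69 to 53.5%), 3 of the 23 genes of the R07E5.16 group (13.0%) and 2 of the 13 genes of the sup-39 group (15.4%). None was found among 19 genes of the C47F8.9 group (a count of 0 allows up to 15.8%), 12 of the F38E11.11 group (25%), 5 of the T11F9.15 group (60%), 16 ungrouped genes (18.75%), 12 of the sls-1 group (25%) or 10 smy genes (30%). These limits for a count of 0 are 3 counts over the number of genes, not upper ends of exact intervals like those of the other shares. With so few genes a group, none of these shares was tested against another. Without the sls, smy and mir-1831 genes, 5 of 88 had an IDR summit (5.68%, 1.87 to 12.8%), near the share of all nuclear genes, which lay inside that interval.

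Pooled summits were also listed in groups with no IDR summit, and their shares were not tested against each other or against the 38.2% of all nuclear genes. Such a summit lay beside 12 of 19 genes of the C47F8.9 group, 7 of 12 of the F38E11.11 group, 4 of 5 of the T11F9.15 group and 5 of the 16 ungrouped genes. Their strongest ranks were 2860, 2500, 5246 and 9836. The smy genes had 2 pooled summits of 10, the stronger at rank 6931 beside smy-1, and none of the sls-1 group had one. Pooled summits lay beside 10 sls-2 genes, with a median rank of 730.5, and beside 12 genes of the R07E5.16 group, with a median rank of 11154.

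**Figure D2:**
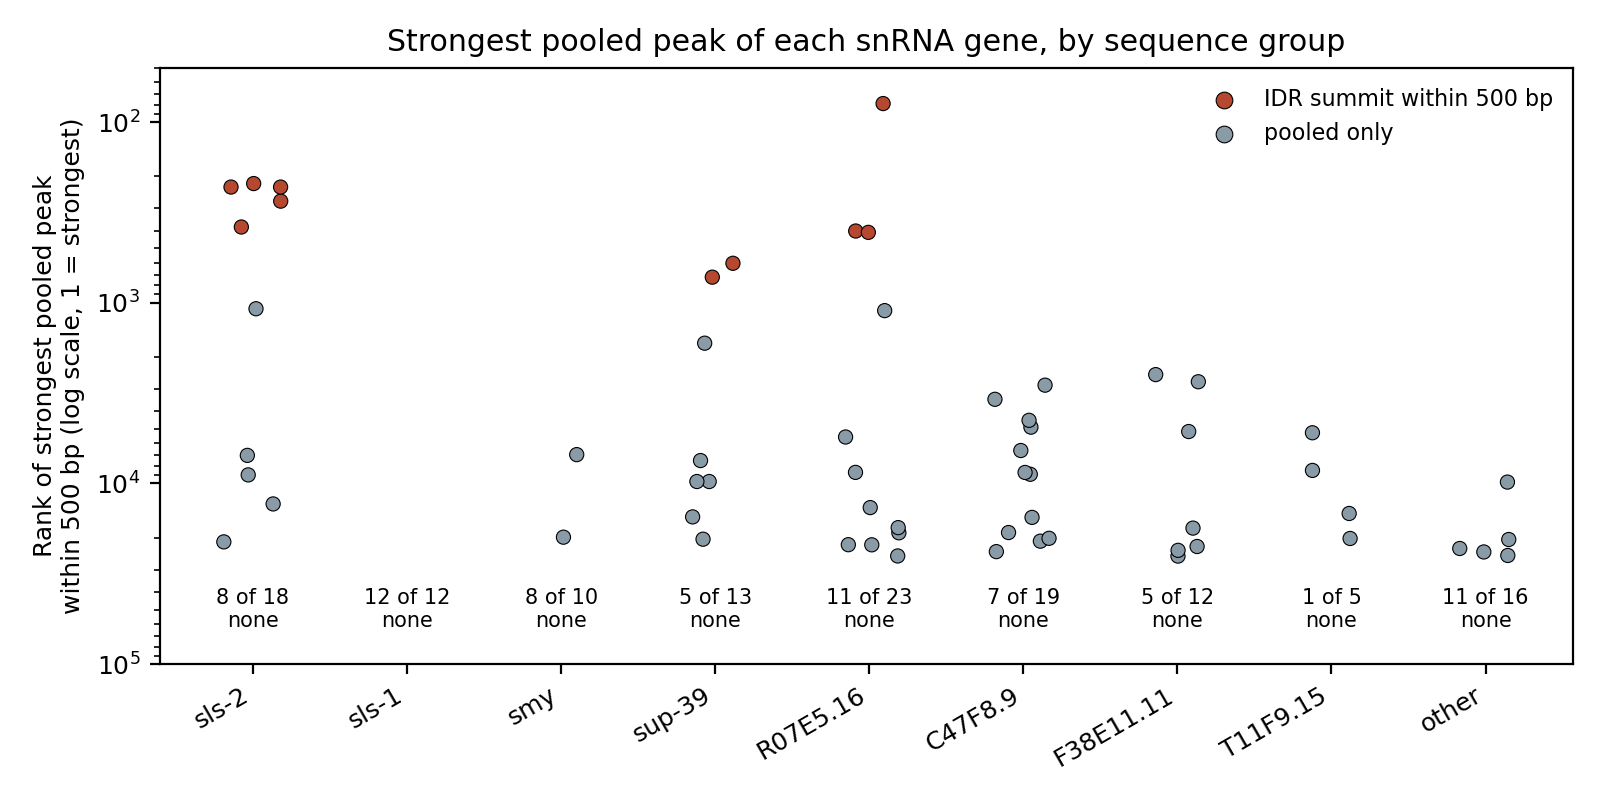
Rank of the strongest pooled peak within 500 bp of each snRNA gene (log scale, 1 at the top is the strongest), by sequence group without mir-1831; points are genes, red where an IDR summit is also present, and text gives the genes with no pooled summit. The red points are 5 sls-2 genes, 2 of the sup-39 group and 3 of the R07E5.16 group.

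The sequences of sls-2.2 and sup-39 are shown as genes with an IDR summit from the sls-2 and sup-39 groups, read 5′ to 3′ along the RNA from the WBcel235 genome. W05B2.8 lies at chrIII:10989679-10989780 on the plus strand, in an intron of the protein-coding gene dhc-4. The sls-2.2 gene lies at chrII:5543598-5543707 on the plus strand outside coding genes, and sup-39 lies at chrII:6968394-6968558 on the minus strand in an intron of C15F1.5. Identity was 97.0% between sup-39 and sup-6 and 97.3% between sls-2.2 and sls-2.3, whereas W05B2.8, C28A5.7 and R07E5.16 were identical and F54D8.7 was 99.0% identical to them.
sls-2.2: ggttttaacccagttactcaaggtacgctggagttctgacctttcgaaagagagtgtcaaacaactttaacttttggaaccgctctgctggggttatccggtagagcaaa
sup-39: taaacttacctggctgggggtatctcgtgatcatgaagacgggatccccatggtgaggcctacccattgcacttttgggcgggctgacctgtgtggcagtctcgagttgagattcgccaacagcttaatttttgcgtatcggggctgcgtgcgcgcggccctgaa

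The bases just upstream of the members were searched for shared words. In nematodes, snRNA and spliced leader genes share a conserved proximal element upstream of the start, and snRNA genes read by RNA polymerase III add a TATA box between it and the start. The words AACCCGC and TGTCGGT were taken as examples because they were among the most frequent 7-base words on the gene's strand, from 80 to 30 bases upstream of these genes, so their shares here follow from that choice, and whether they are that proximal element was not tested. AACCCGC was in 33 snRNA genes (25.6%), 0.105% of protein-coding genes and 3.76% of snoRNA genes, with a median start 58 bases upstream, and TGTCGGT was in 26 (20.2%) and in 0.125% of coding genes, with a median start 47 bases upstream. One or the other was in 52 of the 129 genes, among them 13 of 18 sls-2 genes, 13 of 19 of the C47F8.9 group and 10 of 12 of the F38E11.11 group, but 2 of 23 of the R07E5.16 group and none of 12 of the sls-1 group. The count depends on the word picked, since CGGAACC, which was about as frequent over all members, was in 6 genes of the R07E5.16 group and in 5 smy genes, where AACCCGC was in 2 and 2. TATAA, searched on the gene's strand from 40 to 20 bases upstream, was in 16 of the 23 genes of the R07E5.16 group (69.6%), 19 of all 129, 6.25% of coding genes and 2.78% of tRNA genes.

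Bases from 80 upstream to 20 into the RNA are shown for genes with an IDR summit in the sls-2 and sup-39 groups, on the gene's strand, with AACCCGC and TATAA in capitals. The windows are chrII:5844785-5844884 (plus) for sls-2.1, chrII:6968539-6968638 (minus) for sup-39 and chrII:12944948-12945047 (minus) for sup-6. The 3 genes of the R07E5.16 group with an IDR summit all held TATAA, and of these C28A5.7 also held AACCCGC. Both sup genes held AACCCGC and no TATAA in this window. Of the 11 genes with an IDR summit, 6 held AACCCGC or TGTCGGT, beside 40.3% of all 129. These include mir-1831, whose 5′ end lies 7 bp from that of sup-39 and which shares its AACCCGC, so without it the count was 5 of 10.
sls-2.1 upstream: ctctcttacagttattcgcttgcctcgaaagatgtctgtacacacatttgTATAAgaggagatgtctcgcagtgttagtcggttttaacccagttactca
sup-39 upstream: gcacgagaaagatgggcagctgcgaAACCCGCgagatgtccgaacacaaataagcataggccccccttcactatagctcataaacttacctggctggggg
sup-6 upstream: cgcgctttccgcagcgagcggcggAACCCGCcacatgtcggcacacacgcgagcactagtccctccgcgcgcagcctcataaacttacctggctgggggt

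The strongest peak lay at W05B2.8, of the R07E5.16 group. W05B2.8 had a pair of IDR peaks, at ranks 79 (signal 302.7) and 221 (196.1), with summits 11 and 211 bp downstream of its 5′ end. In replicate 1, summits within 1 bp of them ranked 74 (159.6) and 147 (122.9), whereas replicate 2 listed 1 summit between them, at rank 91 (142.0), 81 bp from the first and 119 bp from the second. The first summit lay in the intron of dhc-4 and the second in its coding sequence. The locus was thus strong in both replicates, but 2 separate summits stood in replicate 1 only.

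C28A5.7, whose RNA is identical to that of W05B2.8, lies at chrIII:4426854-4426955 on the minus strand in an intron of the coding gene C28A5.6 and also had a pair of IDR peaks. The first, 194 bp downstream of its 5′ end, ranked 401 (146.8), with replicate ranks of 669 (59.6) and 304 (85.8). The second, 13 bp upstream of the 5′ end, ranked 549 (126.6), with replicate ranks of 1400 (44.4) and 553 (65.5). Here both replicates listed a summit near each, within 55 bp, and both ranked the downstream summit, in an exon of C28A5.6, above the one at the start.

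F54D8.7, at chrIII:5080798-5080898 on the minus strand outside coding genes, had 1 IDR peak, 5 bp upstream of its 5′ end, at rank 408 (145.6). It ranked 379 (76.6) in replicate 1, at a summit 81 bp away, and 472 (71.0) in replicate 2, at a summit 3 bp away. No other exact copy of these RNAs had an IDR summit. The RNA of W05B2.8 and C28A5.7 is present in 14 exact copies, of which R07E5.16 had a pooled summit at rank 1106 with replicate ranks of 1153 and 1918, and Y17G9A.90 had one at rank 8693. Further copies had weaker pooled summits, ranked from 13615 at K09C6.12 to 25225 at F54C8.9. F54D8.7 has 2 exact copies, Y17G9A.85 and T08B6.62, and neither had a summit in any of the 4 lists.

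Of the SL2 RNA genes, sls-2.2 and sls-2.3 are convergent neighbours that shared a single IDR peak at rank 229 (191.0). The summit lay 104 bp from the 5′ end of sls-2.2, inside that gene, and 462 bp from sls-2.3, at chrII:5544164-5544273 on the minus strand. Replicate 2 listed the same summit at rank 177 (110.0), but in replicate 1 the nearest was 100 bp away at rank 1490 (43.5), with a stronger one at rank 346 (80.5) on the 5′ side of sls-2.2. The replicates therefore differed in where they placed the signal at this locus. At sls-2.1, at chrII:5844865-5844974 on the plus strand, the IDR summit was 43 bp upstream of the start at rank 381 (150.0), and both replicates placed it within 20 bp, at ranks 466 (69.3) and 438 (73.6).

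The other SL2 RNA genes with an IDR summit were sls-2.4 and sls-2.9, both on chromosome I. At sls-2.4 the IDR summit lay inside the gene, 69 bp from its 5′ end, at rank 219 (196.2), with replicate ranks of 218 (101.7) and 231 (98.0). At sls-2.9 the summit lay 190 bp upstream, inside the tRNA gene M01E5.t1, at rank 274 (176.0), with replicate ranks of 251 (94.0) and 328 (81.7). The sls-2.9 gene begins 132 bp from that tRNA gene, so the peak cannot be assigned to one of them. In replicate 2 all 5 SL2 RNA genes had a summit within rank 500, but that of sls-2.3 was the summit inside sls-2.2. In replicate 1 sls-2.3 was the exception. A pooled summit nearer to sls-2.3, 40 bp upstream of its start, ranked 10345. Replicate 1 listed a summit there at rank 2834, and replicate 2 listed none.

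The remaining sls-2 genes showed little. Among them sls-2.8 had a pooled summit 37 bp into the gene at rank 1080 (90.1), with replicate ranks of 1985 and 563, and it lies 85 bp from the 5′ end of a coding gene. The pooled ranks of sls-2.15, sls-2.5, sls-2.14 and sls-2.11 were 6999, 8976, 12997 and 21079, and 8 sls-2 genes had no pooled summit. The genes nearest to the limit of 500 bp were sls-2.3 at 462 bp and sls-2.9 at 190 bp on the inside, and sls-2.15 at 706 bp, sls-2.14 at 1304 bp and F08G2.9 of the C47F8.9 group at 1460 bp on the outside. Few genes thus lay near the limit.

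In the sup-39 group, the peak of sup-39 also served mir-1831, which overlaps it. Its summit lay 149 bp from the 5′ end, inside the gene, at rank 605 (120.5), with replicate ranks of 711 (58.1) and 594 (63.3). The sup-6 gene, at chrII:12944803-12944967 on the minus strand in an intron of F58G1.7, had its summit 197 bp from the 5′ end, past the end of the gene, at rank 722 (109.9). Replicate 1 ranked that summit 416 (73.3), but in replicate 2 the nearest summit was 184 bp away at rank 1347 (43.9). That replicate 2 summit lay 17 bp from a second, weaker summit near the start of sup-6, which ranked 2336 (67.3) in the pooled list and 4948 (31.1) in replicate 1. The third in rank was H27M09.6, with no IDR summit, a pooled rank of 1675 (75.1) and replicate ranks of 1385 (44.5) and 2477 (36.5). Pooled ranks of the 5 others with a pooled summit ran from 7476 at T08G5.11 to 20368 at C27H5.11.

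**Figure D3:**
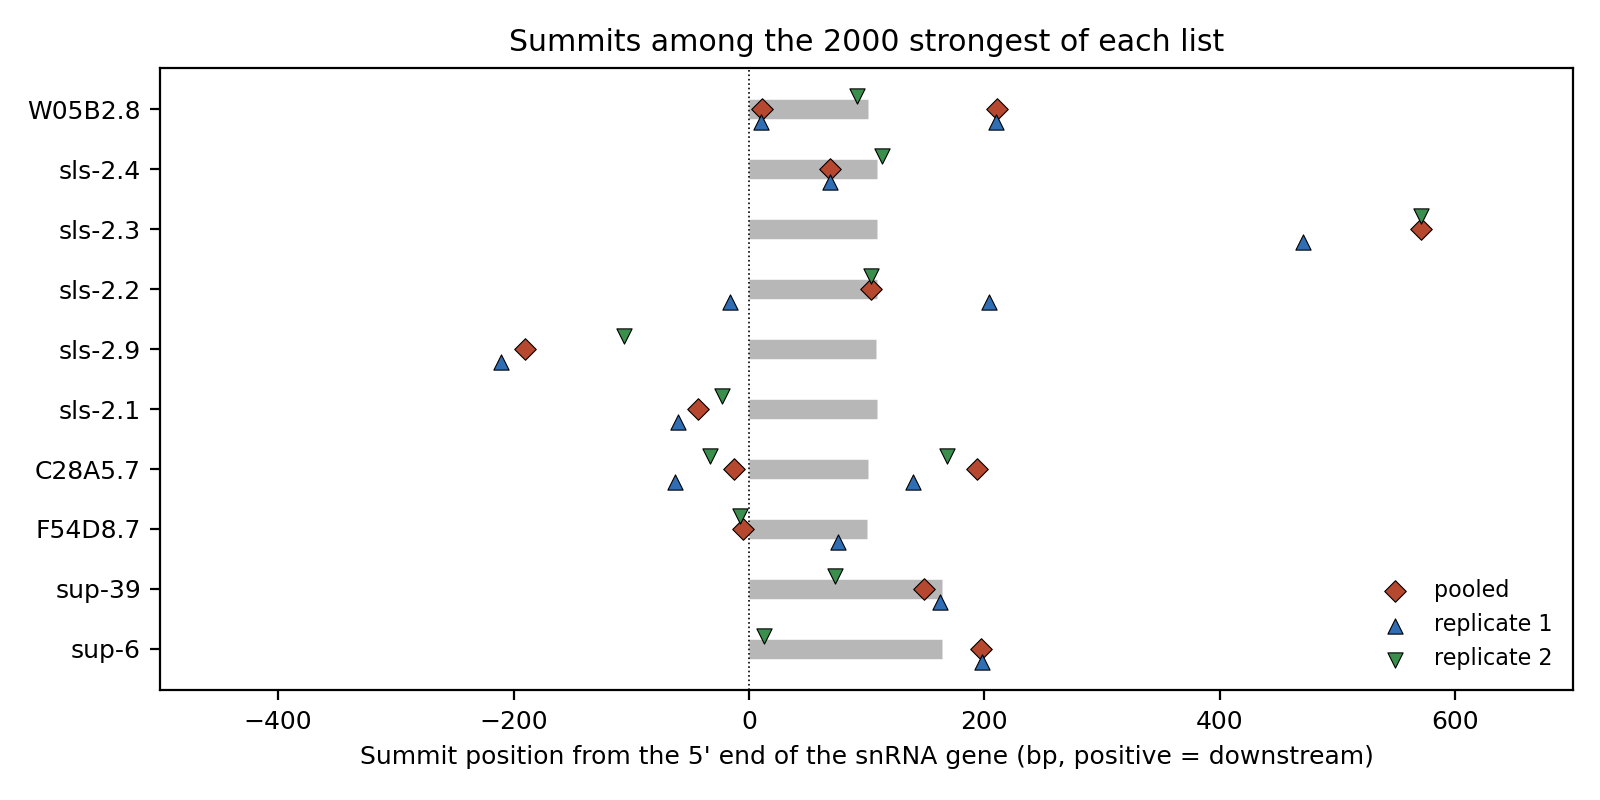
Position of summits from the 5′ end of each snRNA gene with an IDR summit (bp, positive downstream), with grey bars for the gene; diamonds are pooled summits and triangles are replicate 1 and replicate 2 summits among the 2000 strongest of each list. Replicate summits sit together at sls-2.1 and apart at sls-2.2 and sup-6; the second pooled summit of sup-6, at rank 2336 and 17 bp from the replicate 2 summit, is past the 2000 plotted.

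The other genes named for their pooled rank came from the groups with no IDR summit. The deposited −log10 q-values of their strongest pooled summits were low, from 0.679 at F38E11.10 down to 0.281 at ZK897.3. The pooled list holds background entries as well as peaks, so these ranks give an order within the list and do not show binding. F38E11.10 had a pooled rank of 2500 (65.8), 17 bp upstream of its start, which replicate 2 ranked 1948, while the strongest replicate 1 summit within 118 bp of it ranked 8803. A second pooled summit, 573 bp downstream of the start of F38E11.10, ranked 2813 (63.5), and replicate 1 ranked a summit beside it 1768. F32B5.9 had a pooled rank of 2738 (64.0) and ranked 1875 in replicate 2 but 16984 in replicate 1. C05G6.4 had a pooled rank of 2860 (63.2) and went the other way, with rank 1719 in replicate 1 and 14178 in replicate 2. T14B4.10 followed at rank 3425 (60.0), Y57G11C.35 at 4477, W04G5.11 at 4885 and ZK897.3 at 5165. Of these 4, T14B4.10 ranked 4821 and 9285 in replicates 1 and 2, and Y57G11C.35 had no summit in replicate 2. Replicate ranks were thus uneven for most of the genes named here.

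Taken as distinct peaks, the 11 genes rested on 11 IDR peaks in 13 pairs of gene and peak, since 2 peaks were shared by a pair of genes each and 2 genes had 2 peaks each. The 2 peaks of W05B2.8 overlap each other, as do the 2 of C28A5.7, so the 11 peaks are not independent. The median rank of these peaks was 381 of 1042 and their median signal 150.0, against a median of 129.5 over the whole IDR list. The medians were rank 390.5 and signal 149 for the 176 IDR peaks beside tRNA genes, 159.5 and 235 for the 68 beside snoRNA genes, and 543 and 128 for the 12 beside miRNA genes. The median rank beside snRNA genes was thus near that beside tRNA genes, whereas the share of genes with a peak was lower. The summit lay inside an snRNA gene for 4 of the 11 peaks (36.4%), beside 97 of 176 for tRNA genes (55.1%) and 6 of 68 for snoRNA genes (8.82%).

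tRNA genes were rarely near. The median distance from an snRNA gene to the nearest tRNA gene was 133847 bp, and 2 of the 129 genes had one within 500 bp, sls-2.9 at 132 bp and C53D6.12 at 422 bp. The peak of sls-2.9 was the 1 IDR peak of the 11 with a tRNA gene at most 500 bp away. The next nearest tRNA gene was 1985 bp from the summit just upstream of C28A5.7. Without the snRNA genes within 500 bp of a tRNA gene, 10 of 127 had an IDR summit (7.87%).

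Coding starts were not near the IDR peaks either. A protein-coding 5′ end lay within 500 bp of 28 snRNA genes, and none of these had an IDR summit (a count of 0 allows up to 10.7%). Of the other 101, 11 had one (10.9%), a share close to that limit. The 8.53% of all snRNA genes lies under the limit, so the 0 does not set these genes apart. The difference was not tested, and the same split over all nuclear genes was not computed. Among tRNA genes the count was 47 of 131 with a coding 5′ end within 500 bp and 154 of 481 without. The closest coding start to an IDR summit beside an snRNA gene was that of egg-5, 686 bp from the sls-2.4 summit.

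The genes with an IDR summit lay on 3 chromosomes. They were 2 of 16 snRNA genes on chromosome I, 6 of 16 on II and 3 of 13 on III, and none of the 84 on IV, V and X (a count of 0 allows up to 3.57%). The placement shares were 1.42, 1.26 and 1.33% on the first 3, 0.887% on IV, 0.610% on V and 1.56% on X, all below that limit of 3.57%. IV, V and X held 41, 40 and 3 snRNA genes, of which 15 (36.6%), 13 (32.5%) and 2 (66.7%) had a pooled summit. The pooled placement shares there were 21.8, 22.4 and 25.4%, and 38.2% of all nuclear genes had a pooled summit. On I, II and III 8, 13 and 10 snRNA genes had one, with placement shares of 29.3, 29.0 and 29.9%. tRNA genes had IDR summits on IV, V and X too, 26 of 71 on IV, 14 of 78 on V and 96 of 276 on X. Sequence group and chromosome go together here, since all 12 genes of the sls-1 group lie on V and 11 of 12 of the F38E11.11 group on IV, and their parts cannot be told apart.

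Repeated sequence limits where reads can be placed. The share of 31-base words found once in the nuclear genome, over each gene and 500 bp on either side, ran from 79.7 to 97.9% for the 11 genes with an IDR summit. Below 50% unique words were 18 snRNA genes, none with an IDR summit and 1 with a pooled summit. All 12 genes of the sls-1 group were among them, with a median of 3.84% and a range of 0 to 27.5%, so their lack of peaks cannot be told apart from a lack of uniquely placed reads. Without these 18 genes, 11 of 111 had an IDR summit (9.91%) and 60 a pooled one (54.1%). The 10 smy genes were at 96.1 to 100% unique and had no IDR summit, where a count of 0 allows up to 30%. Whether unique sequence plays a part in these counts was not tested. Inside W05B2.8, C28A5.7 and F54D8.7 no 31-base word was unique, so reads lying wholly within these RNAs could not be placed by sequence alone, and how the authors treated such reads is not given in the sources used here.

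**Figure D4:**
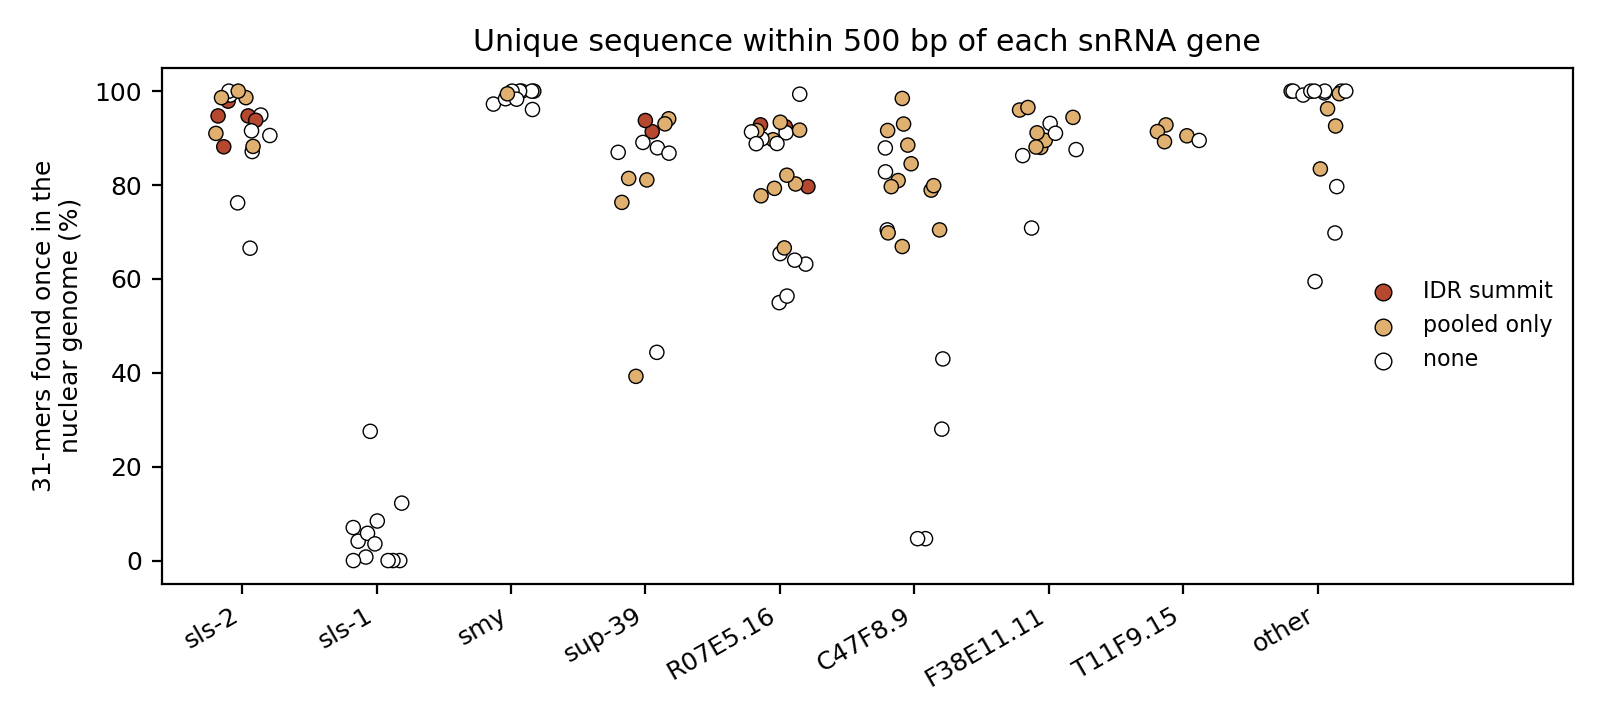
Share of 31-base words within 500 bp of each snRNA gene that occur once in the nuclear genome (%), by sequence group without mir-1831; points are genes, red with an IDR summit, tan with a pooled summit only and white with none. The sls-1 group lies at 0 to 27.5% with white points only, while red points lie between 79.7 and 97.9%.

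The Atonal-type E-boxes CAGATG and CAGCTG, searched on both strands within 50 bp of the summit, were in none of the 11 IDR peaks beside snRNA genes (a count of 0 allows up to 27.3%). The upstream bases of sup-39 shown above do hold CAGCTG, but outside the window of its IDR summit. On that side, a weaker pooled summit at rank 4137 lay 53 bp upstream of the start of sup-39. Of all 1042 IDR peaks, 31.3% held one, as did 9 of 176 beside tRNA genes (5.11%), 9 of 68 beside snoRNA genes (13.2%) and 5 of 12 beside miRNA genes (41.7%). Any E-box of the form CANNTG was in 4 of the 11 peaks (36.4%), against 59.5% of all IDR peaks and 38.6% of those beside tRNA genes. The G+C share within 50 bp was 44.6% at the median (36.6 to 51.5%), against 49.5% over all IDR peaks.

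Summit windows of 101 bases are shown for the peaks of sls-2.1 and sup-6, which held E-boxes, given in capitals on the plus strand of WBcel235. They lie at chrII:5844772-5844872 for sls-2.1 and chrII:12944720-12944820 for sup-6. The E-box of sls-2.1 began 7 bp past the summit and that of sup-6 40 bp before it, while F54D8.7 held 2, beginning 10 and 32 bp past the summit. The W05B2.8 peak at rank 221 held 1, beginning 18 bp before its summit. A match describes these letters only.
sls-2.1 summit: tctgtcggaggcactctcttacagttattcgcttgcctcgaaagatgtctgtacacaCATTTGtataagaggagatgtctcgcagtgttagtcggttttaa
sup-6 summit: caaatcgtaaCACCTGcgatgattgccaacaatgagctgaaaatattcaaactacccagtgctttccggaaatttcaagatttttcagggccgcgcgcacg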

How the data were processed

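Chromatin immunoprecipitation peaks of GFP-tagged LIN-32 were read from 4 deposited lists of 1 group with 2 replicates. Per the file headers and notes deposited with the lists, each replicate and both together were called against 1 control alignment, the IDR list was made from the 3 others, and the build is ce11, whose sequence is that of WBcel235. Which aligner, caller and IDR threshold served is not stated in the notes or labels. Each peak's signal is the authors' deposited caller value on an unstated scale, the −log10 q-value is also as deposited, and the other columns used are the deposited start and summit offset. Depth per sample is unknown.

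Members were the nuclear genes of biotype snRNA in Ensembl release 115; all 129 have the same coordinates in RefSeq, which gave the names. A gene had a peak when a summit lay within 500 bp. The share over all placements of equal intervals on the same chromosomes replaced random positions. Sequence groups joined genes of at least 80% identity (edlib 1.3.9.post1). Shares carry exact (Clopper-Pearson) 95% intervals, and zeros a limit of 3 counts, both for counting error only. With 1 group, no test was made. Named genes were those with an IDR summit, those just inside and outside 500 bp, the 10 next strongest by pooled rank, and copies of these. The members and lists were chosen with earlier results of these data known. Distances and placements were tested on simulated data. Python 3.11.15, numpy 2.4.6, scipy 1.17.1, pandas 2.3.3 and matplotlib 3.10.9 were used. Alternatives changed the distance, the peak list, the replicate and the genes counted. Sequences of the R07E5.16 group are not reported here.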

Additional observations from a re-analysis of the deposited data

How the results depend on the processing

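Of 26 alternatives, 24 left the value inside its interval or within 1.5 times. The IDR share ran from 5.68% without the sls, smy and mir-1831 genes to 10.9% without genes near a coding 5′ end; leaving out these small RNA genes, and genes with under 50% unique 31-base words, was chosen after seeing the data. Leaving out a replicate leaves no IDR list, so the 1042 strongest peaks of the other replicate stood in for it. The share of snRNA genes with such a summit was then 7.75 to 8.53%. For the median signal rank, the summit of the kept replicate nearest to each of the 11 IDR summits was ranked within its own, longer list. This gave 328 to 416. Keeping the 5000 strongest peaks lowered the pooled share from 47.3 to 15.5%, and the genes with a summit in both replicates from 38 to 15, since fewer peaks were counted. The Atonal-type hexamer share was 0 of 11 with 100 bp on each side too. No paired analysis was possible because there was 1 group and no test. Unknown depth, 2 replicates and 11 genes with an IDR summit limit every share by group.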
